A study of Mus musculus with 6 samples.

Results

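Aminoacyl-tRNA synthetases are the enzymes that join each amino acid to its own tRNA, the step that fixes which amino acid a codon is read as. Mammalian cells keep separate sets of these enzymes: most amino acids have 1 enzyme for the cytosol, where nuclear-encoded mRNAs are translated, and another, encoded by a different nuclear gene and usually named with a final 2, that is imported into mitochondria to serve the few proteins made there. In the cytosol, several synthetases are held together with non-enzymatic scaffold proteins in the multisynthetase complex, and many cytosolic synthetase genes are known targets of ATF4, the transcription factor of the amino acid and stress response. The genes were chosen by symbol among protein-coding genes: 36 synthetase genes are described, of 54532 genes in the count table. Of these, 18 encode cytosolic enzymes (Aars, Cars, Dars, Eprs, Farsa, Farsb, Hars, Iars, Lars, Mars, Nars, Qars, Rars, Sars, Tars, Vars, Wars and Yars) and 16 encode mitochondrial enzymes (Aars2, Cars2, Ears2, Fars2, Hars2, Iars2, Lars2, Mars2, Nars2, Pars2, Rars2, Sars2, Tars2, Vars2, Wars2 and Yars2). The other 2, Gars (glycine) and Kars (lysine), supply both compartments from a single gene. All 36 passed the filter on low counts.

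The 6 libraries are bulk RNA-seq of primary mouse myoblasts, the proliferating precursors of muscle fibres, on day 2 of culture with FGF: 3 labelled WT and 3 labelled eIF5A-KO. In the study, the knockout carries floxed alleles and a tamoxifen-inducible Cre expressed from Pax7, a gene of satellite cells (Pax7CreERT2/+;eIF5A f/f). The study describes its WT control in 1 place as carrying the Cre alone (Pax7CreERT2/+) and in another as carrying the floxed alleles without the Cre (Pax7+/+;eIF5A f/f), and the labels do not say which of them gave these libraries. Cells of other types in a muscle digest would not be expected to carry the deletion. eIF5A is a translation factor that helps ribosomes through sequences on which they stall, and the comparison asks whether its loss is accompanied by another level of the synthetase mRNAs. For its ribosome-associated RNA from myoblasts of these genotypes the study names 3-week-old mice and WT littermates. The labels of these libraries give no age and not how many animals contributed to a library, so p-values measure the spread between these libraries, which may be technical.

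The libraries held between 16281216 and 17734551 counted reads, of which the 36 genes took between 0.418% and 0.483%. Eif5a mRNA did not differ detectably by genotype label (log2 fold change 0.02, 95% interval -0.51 to 0.55, n = 3 per group, edgeR adjusted p = 0.993), so groups are named by their labels throughout. The counts cover the whole gene and cannot show the loss of single floxed exons. Every marker gene listed for muscle, fibroblast, endothelial, mural and macrophage cells had reads in every library. The 10 myogenic markers summed to between 926 and 2331 CPM (reads relative to the library total, corrected by TMM) in WT and between 929 and 1516 CPM in eIF5A-KO, and 9 of them were lower in eIF5A-KO in estimate, 3 with an unadjusted p under 0.05 in edgeR. The 8 endothelial markers summed to between 1445 and 2796 CPM in WT and between 2591 and 3815 CPM in eIF5A-KO, and the 8 mural markers to between 363 and 603 CPM and between 700.1 and 756 CPM. All 8 genes of each of these 2 lists were higher in eIF5A-KO in estimate. Of them, 2 endothelial and 4 mural genes had an unadjusted p under 0.05 in edgeR. Of all tested genes, 2.74% were higher and 4.02% lower at that limit, and 51.7% were lower in estimate. Among the mural genes, Myh11 passed adjustment over all tested genes (log2 fold change 1.52, edgeR adjusted p = 0.0486). This call depended on the processing. Myh11 was not called with DESeq2's size factors, library size alone, at least 10 counts in every library or limma-voom. The lowest myogenic, endothelial and mural sums were all those of WT replicate 1. Of the 10 fibroblast markers, 4 were higher and 6 lower. They summed to between 3066 and 3892 CPM in WT and between 3173 and 3966 CPM in eIF5A-KO. Col1a1 and Col1a2 were higher with an unadjusted p under 0.05 in edgeR (log2 fold changes 0.72 and 0.71). The 8 macrophage markers, 6 of them higher and 2 lower, summed to between 62.6 and 135 CPM and between 66.3 and 167 CPM. Among these, Cd68 was higher with an unadjusted p under 0.05 in edgeR (log2 fold change 0.84). In bulk RNA, fewer cells of a type and less RNA per cell cannot be told apart, and the part of cell composition in the values below was not tested.

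Promoter sequence is shown for the synthetases that carry the letters bound by ATF4. The motif TGATGNAA, the core of the element to which ATF4 binds with C/EBP proteins, was searched on both strands from 250 bases before to 50 bases after the annotated start. RefSeq promoters (GRCm38.p6) were matched by symbol for 27 of the 36 genes, without Cars, Hars, Lars, Nars, Rars, Vars, Wars, Hars2 and Pars2, and 5 of them held the motif, all among the 13 cytosolic or dual genes and none among the 14 mitochondrial genes. Of 32851 mouse promoters of the same length, 3.97% held it. The windows below run 5′ to 3′ on the strand of each gene, each ends 30 bases after its start, and capitals mark the motif, which reads TTNCATCA in the reverse orientation.

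Aars, alanine (chr8:111033722-111033871, plus strand): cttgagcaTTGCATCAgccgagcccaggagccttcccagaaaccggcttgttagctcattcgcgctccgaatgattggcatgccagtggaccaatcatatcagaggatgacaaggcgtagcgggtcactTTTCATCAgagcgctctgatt
Gars, glycine (chr6:55037951-55038030, plus strand): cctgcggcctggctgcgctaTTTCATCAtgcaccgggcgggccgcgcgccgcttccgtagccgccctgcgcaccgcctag
Iars, isoleucine (chr13:49682080-49682159, plus strand): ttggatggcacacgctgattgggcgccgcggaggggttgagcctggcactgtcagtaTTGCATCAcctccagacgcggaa
Tars, threonine (chr15:11399629-11399708, minus strand): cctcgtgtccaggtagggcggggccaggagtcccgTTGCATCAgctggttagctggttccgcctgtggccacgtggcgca
Yars, tyrosine (chr4:129189853-129189932, plus strand): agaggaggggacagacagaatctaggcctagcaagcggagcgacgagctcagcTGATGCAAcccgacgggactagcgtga

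Aars held the motif at 2 places, and in Aars, Iars, Tars and Yars it took the form TTGCATCA or its reverse complement TGATGCAA, which 0.895% of all promoters held. The other motifs searched were CACGTG, the E-box bound by Myc and by related factors, with 5 of 27 genes (Aars, Ears2, Farsb, Iars and Tars) against 7.15% of all promoters; GGAAGTG, with 4 against 11.0%; CGGAAGT, which shares bases with it, with 4 against 6.42%; CCAAT, with 13 against 37.4%; and TGACGTCA, with 0 against 1.79%. A match describes letters in a window and not binding.

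In level, the 2 sets of enzymes stood apart. Levels were compared between genes in FPKM, the authors' reads per kilobase of gene length, divided by a scale factor for each library. Averaged over the 6 libraries, each of the 18 cytosolic genes lay above each of the 16 mitochondrial genes, from Eprs at 12.5 FPKM, the lowest cytosolic gene, down to Lars2 at 11.3 FPKM, the highest mitochondrial gene. Eprs encodes the 1 fused enzyme that charges both glutamate and proline tRNAs, and the gene length used for it, 18102 bases, stands against 4906 bases for its longest coding transcript, which by division lowers its FPKM. The border between the sets was crossed in 1 library, eIF5A-KO replicate 2, where Lars2 stood at 21.7 FPKM against 11.9 FPKM for the lowest cytosolic gene.

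By the deposited gene lengths, Nars, the asparagine enzyme, was the most abundant of all, at 146 ± 20.6 FPKM in WT and 139.9 ± 7.20 FPKM in eIF5A-KO (SD, n = 3). Gars followed at 104 ± 8.99 and 115 ± 3.73 FPKM, and Sars, the serine enzyme, at 72.9 ± 8.37 and 87.3 ± 10.3 FPKM. These 3 kept this order in all 6 libraries. With the longest coding transcript as the length, a choice added after the data had been seen, Gars stood above Nars in 5 of 6 libraries, with means of 145 and 138 CPM per kilobase. Further down, Farsb, Mars, Lars, Wars and Aars had means within 39.6 to 40.5 FPKM, a span below the SD over the WT libraries of Farsb (8.18 FPKM), Aars (6.13 FPKM) and Lars (1.54 FPKM) and above that of Mars (0.623 FPKM) and Wars (0.589 FPKM). At the other end stood the mitochondrial enzymes for methionine, tryptophan and asparagine: Mars2 at 1.57 ± 0.105 and 1.24 ± 0.109 FPKM, Wars2 at 1.64 ± 0.154 and 1.44 ± 0.109 FPKM, and Nars2 at 1.71 ± 0.263 and 1.45 ± 0.163 FPKM. Their means over all 6 libraries were 1.41, 1.54 and 1.58 FPKM. These spanned less than the SD of Nars2 over the WT libraries and more than those of Mars2 and Wars2. With the longest coding transcript as the length, Pars2 stood below Nars2, with means of 2.89 and 2.94 CPM per kilobase. By that length the means of Farsb, Mars, Lars, Wars and Aars ran from 39.0 (Lars) to 64.4 (Aars) CPM per kilobase. Per library, the median cytosolic level was between 8.64 and 12.6 times the median mitochondrial level, and the mitochondrial genes made up between 7.17% and 8.42% of the summed FPKM of all 36.

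**Figure D1:**
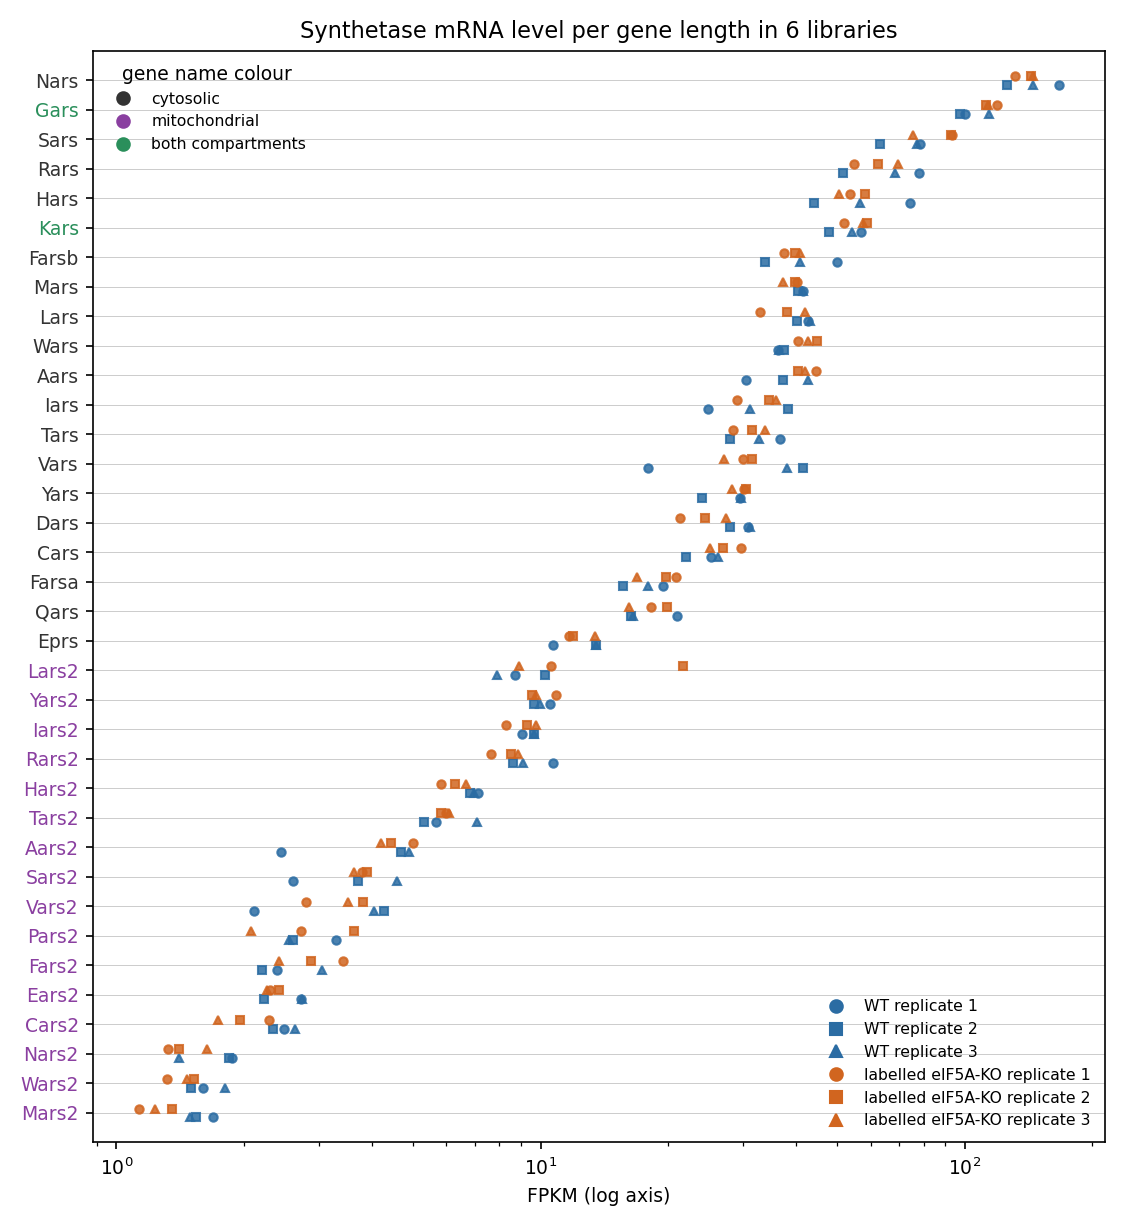
Level of each of the 36 synthetase genes in each of the 6 libraries, in FPKM on a log axis, ordered by the mean; blue points are WT, orange points are libraries labelled eIF5A-KO, symbols give the replicate, and the colour of the gene name gives the compartment. Cytosolic genes fill the upper part, from Nars at a mean of 143 FPKM, and mitochondrial genes the lower part, to Mars2 at 1.41 FPKM, with Lars2 in eIF5A-KO replicate 2 (21.7 FPKM) as the point that leaves its set.

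For 13 amino acids with a single gene for each compartment, a ratio was taken within each library, in which library scale cancels. Glutamine has no mitochondrial synthetase of its own: Ears2 loads glutamate onto the mitochondrial glutamine tRNA, and the amidotransferase GatCAB (Gatb, Gatc and Qrsl1) converts it. All 13 ratios were above 1 in all 6 libraries. With the longest coding transcript as the length this held too, except for leucine in eIF5A-KO replicate 2, where Lars over Lars2 was 0.598. The ratio was largest for asparagine (Nars over Nars2), with a median of 94.3 and a range of 68.0 to 103, and smallest for tyrosine (Yars over Yars2), with a median of 2.85 and a range of 2.49 to 3.20. With transcript length in place of the gene length these medians became 49.0 and 5.19, and the smallest median was then that of leucine, 1.47.

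In 3 pairs the ratio did not overlap between the groups, all of them higher in eIF5A-KO. For cysteine, the ratio of Cars to Cars2 was 10.1, 9.43 and 9.95 in WT replicates 1 to 3 and 12.9, 13.8 and 14.5 in eIF5A-KO replicates 1 to 3. For tryptophan, Wars to Wars2 was 22.6, 24.9 and 20.2 in WT and 30.7, 29.5 and 29.04 in eIF5A-KO. For methionine, Mars to Mars2 was 24.6, 26.3 and 27.9 in WT and 35.5, 29.6 and 30.3 in eIF5A-KO. These 3 were picked out after their values were seen and were not tested. Library scale cancels in a ratio, but the trend with GC content described below need not. The GC content of the longest coding transcript was 53.7% for Mars and 38.8% for Mars2. It was 53.6% and 46.5% for Wars and Wars2, and 53.7% and 55.8% for Cars and Cars2. The part of GC content in these ratios was not tested. For single genes, 12.5% of the 14679 tested genes do not overlap between the groups, and no such background was computed for ratios. Leucine lay in the other direction: Lars to Lars2 was 4.89, 3.94 and 5.45 in WT and 3.11, 1.76 and 4.73 in eIF5A-KO, with overlap between the groups.

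**Figure D2:**
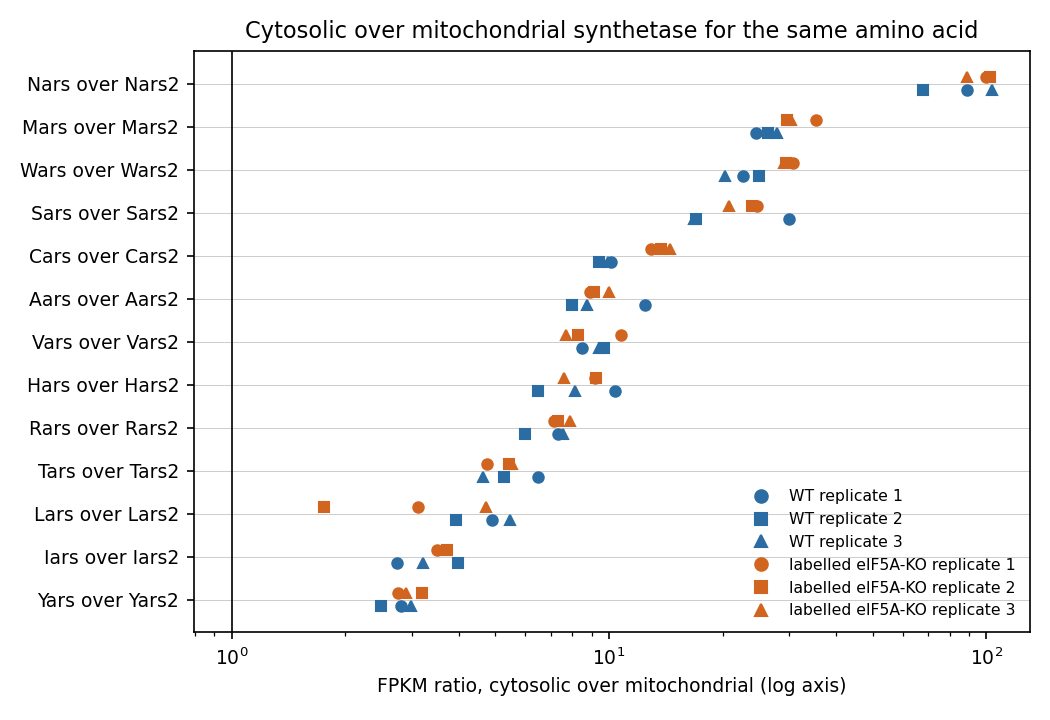
Ratio of the cytosolic to the mitochondrial synthetase for 13 amino acids, in FPKM and on a log axis, in each library; blue is WT, orange is labelled eIF5A-KO, symbols give the replicate, and the vertical line marks a ratio of 1. All points lie to the right of the line, Nars over Nars2 lies farthest (68.0 to 103), and Lars over Lars2 in eIF5A-KO replicate 2 lies nearest (1.76).

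Between the groups, none of the 36 genes passed the test. In edgeR's quasi-likelihood test with Benjamini-Hochberg adjustment over 14679 genes, 0 of them had an adjusted p under 0.05, against 3 genes or 0.0204% of all tested genes, and the smallest adjusted p among the 36 was 0.805. DESeq2, limma-voom and every other alternative also called 0 of them. At an unadjusted p under 0.05 in edgeR there were also 0 of the 36, where 6.76% of all tested genes met that limit (2.74% higher and 4.02% lower in eIF5A-KO). It follows that none of them met the study's own criterion of a fold over 2 with an unadjusted p under 0.05, which 1.85% of tested genes met. The intervals show what the data allow: for 35 of 36 genes the 95% interval lay within a 2-fold change in either direction, against 70.7% of all tested genes, and for 22 of 36 within a 1.5-fold change, against 26.8%. The exception at 2-fold was Lars2.

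In direction, 14 genes were higher and 22 lower in eIF5A-KO (61.1% lower, against 51.7% of all tested genes), with Qars, Sars2 and Yars2, all close to 0, changing sign under another scaling. The median log2 fold change was -0.05, against -0.01 for all tested genes. The 18 cytosolic genes divided into 8 higher and 10 lower (median -0.05) and the 16 mitochondrial genes into 4 higher and 12 lower (median -0.06). The mitochondrial minus the cytosolic median was -0.01 with all libraries and -0.15 without WT replicate 1, where the cytosolic median was 0.07 and the mitochondrial -0.09. Of the 36 genes, 6 had CPM values that separated the 2 groups without overlap (16.7%, against 12.5% of all tested genes). Wars was higher, where 5.68% of all tested genes were higher without overlap. Dars, Mars, Mars2, Cars2 and Hars2 were lower, where 6.83% were.

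**Figure D3:**
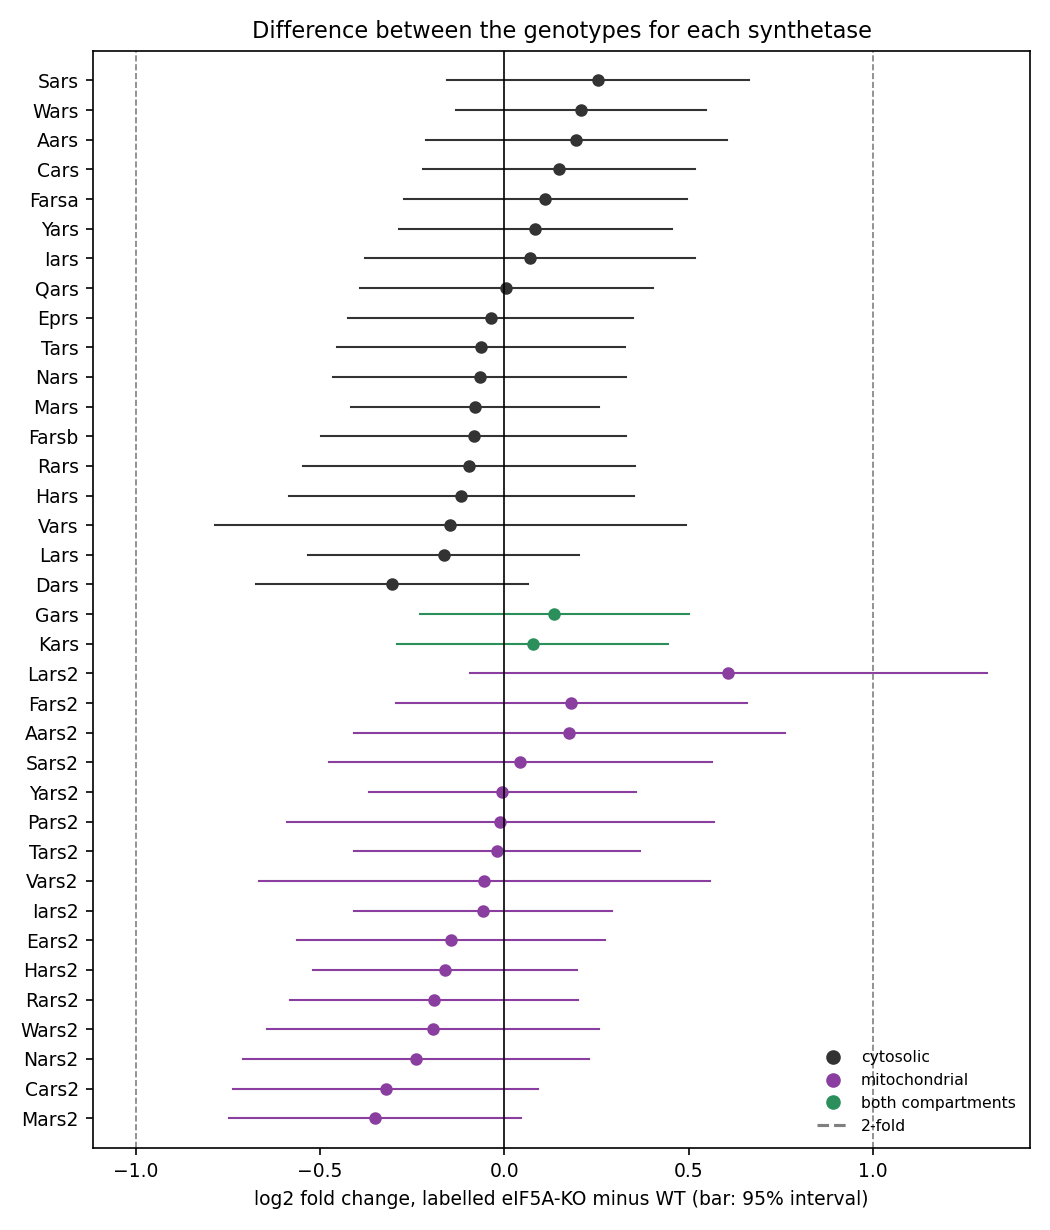
Log2 fold change of each synthetase gene, libraries labelled eIF5A-KO minus WT, with its 95% interval from edgeR, by compartment; the solid line marks no change and the dashed lines a 2-fold change. The lowest estimate is that of Mars2 (-0.35), 35 of 36 intervals stay between the dashed lines, and the interval of Lars2 reaches 1.31.

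Among mitochondrial enzymes the largest decreases in estimate were for methionine, cysteine and asparagine. Mars2 (chromosome 1, 55237177 to 55248470, plus strand), which loads methionine both for initiation and for elongation in mitochondria, was at 19.4, 17.6 and 17.0 CPM in WT and at 12.9, 15.3 and 14.0 CPM in eIF5A-KO. The groups did not overlap, and the log2 fold change was -0.35 (95% interval -0.75 to 0.04, edgeR adjusted p = 0.805). Cars2 (chromosome 8, 11513977 to 11550783, minus strand), the mitochondrial cysteine enzyme, was at 18.3, 17.1 and 19.2 CPM in WT and at 16.8, 14.3 and 12.6 CPM in eIF5A-KO. Again no library of 1 group entered the range of the other (log2 fold change -0.32, 95% interval -0.74 to 0.09, edgeR adjusted p = 0.827). Cars2 overlaps Naxd on the opposite strand over 984 bases of the gene bodies, and the sources used here do not say whether strand was used in counting. Nars2 (chromosome 7, 96951505 to 97064758, plus strand), the mitochondrial asparagine enzyme, was at 13.2, 13.0 and 9.86 CPM in WT and at 9.30, 9.83 and 11.5 CPM in eIF5A-KO. WT replicate 3 lay within the range of the libraries labelled eIF5A-KO (log2 fold change -0.24, 95% interval -0.71 to 0.23, edgeR adjusted p = 0.914).

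The largest increase in estimate was Lars2 (chromosome 9, 123366927 to 123462666, plus strand), the mitochondrial leucine enzyme, and it rested on 1 library. Lars2 was at 98.2, 115 and 88.4 CPM in WT and at 119, 242 and 98.9 CPM in eIF5A-KO. Replicate 2 labelled eIF5A-KO stood above every other library, while replicates 1 and 3 were within or next to the WT range. The log2 fold change was 0.61 (95% interval -0.09 to 1.31, edgeR adjusted p = 0.809) with all libraries and 0.12 without eIF5A-KO replicate 2. In that library the mitochondrial ribosomal RNA mt-Rnr2 was at 1196 CPM. It was at 1452 CPM in WT replicate 1, where Lars2 was at 98.2 CPM, and between 543 and 701 CPM in the other 4 libraries. Gm26917, a gene checked beside mt-Rnr2, was at 49.2, 72.9 and 62.8 CPM in WT and at 100, 104 and 76.0 CPM in eIF5A-KO. The part of ribosomal RNA in the Lars2 value was not tested. Fars2, the single-chain mitochondrial phenylalanine enzyme, was at 14.0, 12.8 and 17.7 CPM in WT and at 19.8, 16.6 and 13.9 CPM in eIF5A-KO, with overlap (log2 fold change 0.18, 95% interval -0.30 to 0.66, and 0.05 without eIF5A-KO replicate 1). Aars2, the mitochondrial alanine enzyme, was at 11.8, 22.5 and 23.5 CPM in WT and at 24.1, 21.3 and 20.1 CPM in eIF5A-KO. WT replicate 1 was the only library of Aars2 outside the range of 20.1 to 24.1 CPM, and without it the log2 fold change turned from 0.18 to -0.07.

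Among cytosolic enzymes the largest decreases in estimate were Dars, Lars and Vars. Dars (chromosome 1, 128363707 to 128417368, minus strand), the aspartate enzyme of the multisynthetase complex, was at 136 CPM in WT replicate 1, 123 CPM in replicate 2 and 137 CPM in replicate 3, and at 93.7, 107 and 119.6 CPM in eIF5A-KO. The groups did not overlap, and the log2 fold change was -0.30 (95% interval -0.68 to 0.07, edgeR adjusted p = 0.815). Lars, the cytosolic leucine enzyme, which is also known as a leucine sensor for mTORC1, was at 167, 157 and 168 CPM in WT and at 128, 148 and 163 CPM in eIF5A-KO. Its groups overlapped through eIF5A-KO replicate 3 (log2 fold change -0.16, 95% interval -0.53 to 0.20, and -0.07 without eIF5A-KO replicate 1). Vars, the valine enzyme, was at 102, 236 and 216 CPM in WT and at 169.9, 178 and 152 CPM in eIF5A-KO. WT replicate 1 lay below all other libraries and WT replicates 2 and 3 above them, so that the log2 fold change was -0.15 (95% interval -0.79 to 0.49) with all libraries and -0.43 (unadjusted p = 0.0213 in edgeR) without WT replicate 1.

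The largest increases in estimate among cytosolic enzymes were Sars, Wars and Aars. Sars was at 409, 329 and 399 CPM in WT and at 485, 481 and 389 CPM in eIF5A-KO, with overlap through replicate 3 (log2 fold change 0.25, 95% interval -0.16 to 0.66, edgeR adjusted p = 0.884). Wars (chromosome 12, 108860030 to 108894174, minus strand), the tryptophan enzyme, known for its induction by interferon gamma, was at 127, 130.4 and 127 CPM in WT and at 140.4, 156 and 148 CPM in eIF5A-KO. The 3 WT values were close together, no library overlapped with the other group, and the log2 fold change was 0.21 (95% interval -0.13 to 0.55, edgeR adjusted p = 0.886). Aars was at 287, 349.7 and 399 CPM in WT and at 419, 377 and 391 CPM in eIF5A-KO, with overlap (log2 fold change 0.20, 95% interval -0.21 to 0.61, and 0.09 without WT replicate 1). The annotated gene body of Aars contains Exosc6 on the same strand, for which the table lists 0 reads in every library.

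The 2 genes that serve both compartments make enzymes for the cytosol and for mitochondria from the same gene, Gars by alternative starts of translation and Kars by alternative splicing. Gars was at 318, 308 and 359.6 CPM in WT and at 375, 352 and 355 CPM in eIF5A-KO (log2 fold change 0.13, 95% interval -0.23 to 0.50). Kars was at 258, 216 and 244 CPM in WT and at 235, 265 and 258 CPM in eIF5A-KO (log2 fold change 0.08, 95% interval -0.29 to 0.44, and 0.01 without WT replicate 2). In both genes the groups overlapped. The remaining synthetases, 12 cytosolic and 10 mitochondrial, had log2 fold changes between -0.12 (Hars) and 0.15 (Cars) in the cytosol and between -0.19 (Wars2) and 0.04 (Sars2) in mitochondria. Of those, Mars and Hars2 did not overlap between the groups, with log2 fold changes of -0.08 and -0.16. Hars2 and Hars start head to head, and their annotated gene bodies overlap over 198 bases.

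**Figure D4:**
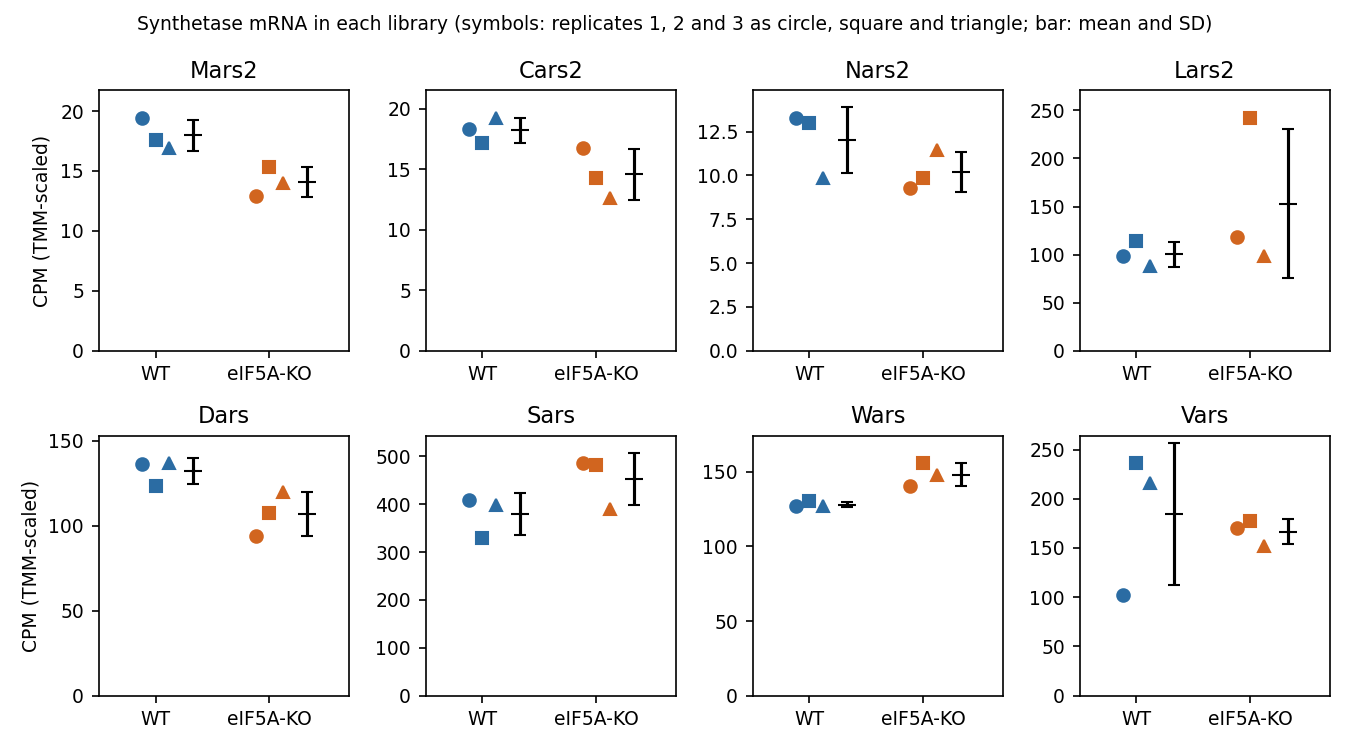
Level of 8 synthetase genes in each library, in CPM scaled with TMM factors, from 0; symbols are replicates, and the bar at the side gives the mean and SD of each group (n = 3). The groups of Mars2, Cars2, Dars and Wars do not overlap, Lars2 is set by replicate 2 labelled eIF5A-KO (242 CPM), and Vars in WT spans 102 to 236 CPM.

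By assembly, the 8 enzymes of the multisynthetase complex (Dars, Eprs, Iars, Kars, Lars, Mars, Qars and Rars) were divided into 3 higher and 5 lower, with a median log2 fold change of -0.06. The 11 cytosolic enzymes outside the complex were divided into 6 and 5, with a median of 0.08. None of its 3 scaffold genes passed an unadjusted p of 0.05: Aimp1 was at -0.07, Aimp2 at 0.14 and Eef1e1 at -0.28 on the log2 scale. By structural class, the 9 cytosolic class I enzymes had a median of 0.01 and the 8 of class II a median of -0.06. In mitochondria, 8 of 9 class I enzymes and 4 of 7 class II enzymes were lower, with medians of -0.14 and -0.01. None of these medians was tested.

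Neighbouring steps of the same pathway were counted in the same way. Of 10 partners of mitochondrial charging and translation, among them the GatCAB subunits, the methionyl-tRNA formyltransferase Mtfmt, the tRNA end-adding enzyme Trnt1 and the elongation factor Tufm, 5 were higher and 5 lower, 0 had an unadjusted p under 0.05 in edgeR, and the median log2 fold change was -0.01. Of 4 tested synthetase-like and proofreading genes (Tarsl2, Prorsd1, Dtd1 and Dtd2), all were lower in estimate, between -0.39 and -0.0035, with none under an unadjusted p of 0.05. The selenocysteine enzymes Pstk and Sepsecs were at -0.13 and 0.04.

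The synthetases were also set beside genes of the ATF4 axis, of Myc and ribosome biogenesis, and of the cell cycle. Of 22 genes of the ATF4 axis outside the synthetases, 13 were higher and 9 lower, with a median log2 fold change of 0.04, and 2 had an unadjusted p under 0.05 (9.09%, against 6.76% of all tested genes). These were the stress-induced transcription factors Atf3, at 90.2, 103 and 99.4 CPM in WT and 164, 138 and 131 CPM in eIF5A-KO (log2 fold change 0.57, edgeR unadjusted p = 0.00718), and Ddit3, at 41.5, 27.5 and 43.7 CPM and 71.3, 47.8 and 49.8 CPM (0.58, unadjusted p = 0.0348), with adjusted p of 0.484 and 0.679. Both had no overlap between the groups, as had 5 of the 22 genes in all (22.7%, against 12.5% of all tested genes). Ddit3 overlaps Mars on the opposite strand over 68 bases, and Mars was at -0.08. Atf4 itself was at 0.05 and Asns, the asparagine synthetase commonly read as an ATF4 target, at 0.01. The 5 synthetases with the ATF4 motif printed above were at 0.20 (Aars), 0.13 (Gars), 0.07 (Iars), -0.06 (Tars) and 0.08 (Yars), none with an unadjusted p under 0.05.

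Of 10 genes of Myc and ribosome biogenesis, 4 were higher and 6 lower, with a median log2 fold change of -0.02 and 0 under an unadjusted p of 0.05. Of 20 cell cycle genes, all were lower in eIF5A-KO in estimate, with a median log2 fold change of -0.56, and 12 had an unadjusted p under 0.05 in edgeR (4.02% of all tested genes were lower at that limit), though 0 had an adjusted p under 0.05. Among them, the mitotic kinesin gene Kif11 was at 46.6, 46.7 and 41.1 CPM in WT and at 16.8, 23.3 and 18.8 CPM in eIF5A-KO (log2 fold change -1.19, adjusted p = 0.135). Beside them, the summed level of the 18 cytosolic synthetases was 3485, 3236 and 3569.9 CPM in WT and 3441, 3557 and 3463 CPM in eIF5A-KO, with overlap. The summed level of the 16 mitochondrial synthetases was 446, 471 and 469.6 CPM in WT and 455, 591 and 443 CPM in eIF5A-KO, and the value of 591 CPM is that of the library in which Lars2 was at 242 CPM.

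Synthetase levels also differed between replicates of a group, and part of this ran with the base composition of the transcript. Across the 36 genes, the deviation of WT replicate 1 from the mean of the other 5 libraries had a Pearson correlation of -0.64 with the GC content of the longest coding transcript, and that of eIF5A-KO replicate 1 a correlation of 0.66. Over 13145 tested genes the same correlations were -0.33 and 0.44. The points share their libraries and their normalization, and the values are a description across genes. The 5 genes of highest GC content (Ears2, Vars2, Aars2, Sars2 and Vars, 58.1% to 60.9%) lay below the mean of the other 5 libraries in WT replicate 1 in 4 cases, down to -0.91 on the log2 scale for Aars2. The 5 of lowest GC content (Mars2, Dars, Rars2, Nars2 and Rars, 38.8% to 45.9%) all lay above that mean, by 0.24 to 0.37. WT replicate 1 also had the largest share of mitochondrial transcripts, 5.75% of counts against 2.11% to 3.50% in the other libraries, and its endothelial markers summed to 1445 CPM against 2591 to 3815 CPM in the other 5. The part of mitochondrial share and cell composition in these deviations was not tested.

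The log2 fold changes of the 36 genes had a Pearson correlation of 0.43 with GC content (0.25 over the 13145 genes), with Dars and Mars2 at the low end of GC content. At the high end the signs were mixed: Aars2 was at 0.18 and Sars2 at 0.04, Vars at -0.15, Ears2 at -0.14 and Vars2 at -0.05. With the trend taken out of each library, in a fit added after the data had been seen, the log2 fold change of Dars was -0.19, of Mars2 -0.20, of Aars 0.10, of Fars2 0.06 and of Lars2 0.60. Cars2, of high GC content (55.8%), was then at -0.43 with an unadjusted p of 0.0290 and an adjusted p of 0.645 in edgeR. What goes with GC content in these libraries was not tested.

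**Figure D5:**
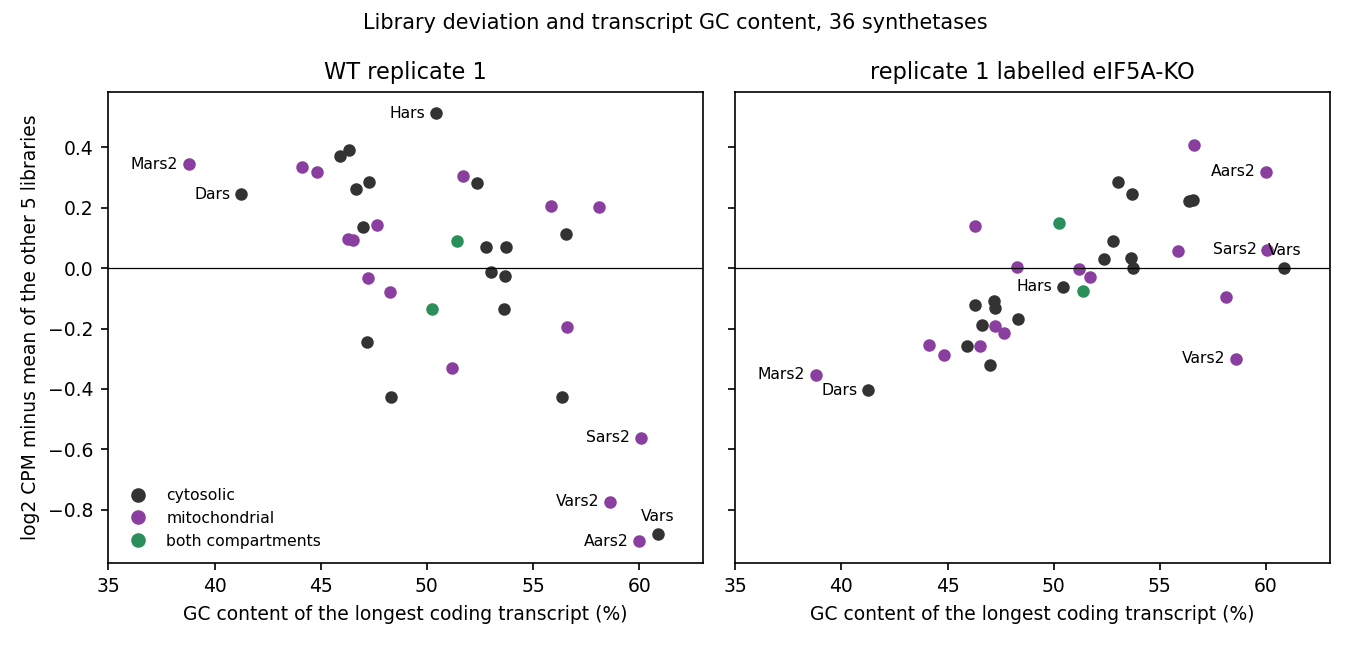
Deviation of 2 libraries from the mean of the other 5, in log2 CPM, against the GC content of the longest coding transcript for the 36 synthetase genes; colours give the compartment and some genes are named. In WT replicate 1 the points descend with GC content (Pearson -0.64), with Aars2 and Vars lowest, and in replicate 1 labelled eIF5A-KO they ascend (0.66), with Dars lowest.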

How the data were processed

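The authors extracted total RNA with TRIzol, built libraries with an NEBNext Ultra kit and mapped reads to mm10 (GRCm38) with HISAT. They deposited unnormalized counts of reads for each gene, and FPKM values whose denominators equalled a median-of-ratios size factor times the geometric mean of the totals. The HISAT version, annotation, strand setting and treatment of multi-mapped reads are not given in the sources used here. Counts were tested with edgeR 4.0.16 in R 4.3.3 (filterByExpr, TMM factors, quasi-likelihood F test, prior count 2, Benjamini-Hochberg adjustment over 14679 genes, no covariate), and levels between genes were read from the FPKM. CPM use TMM factors, and intervals are at 95%. Values were given per library for each synthetase with an unadjusted p under 0.05 and for the 3 largest increases and decreases per compartment. Of 37 genes matched by symbol, 1 is not reported here. The members and the gene lists were chosen with earlier results of these data known. In simulated counts for this comparison (14451 genes tested), edgeR called 101 of 114 genes changed by 2 and 25 of 84 changed by 1 on the log2 scale. Alternatives were DESeq2 1.42.0, limma 3.58.1 (voom, or log2 FPKM with a pseudocount of 1 or 0.1), other size factors and filters, a replicate block, each library left out and, added later, a GC correction and, for levels, the longest coding transcript as gene length. Overlaps between genes were taken from the deposited gene positions. Transcripts of GENCODE M21 gave GC content, transcript length and, with blastn 2.17.0, copies. Of the 36 genes, 5 aligned to another gene over at least 200 bases at 90% identity, with Iars and the pseudogene Gm4849 (1656 bases) the longest. Reads carry no molecular identifiers.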

Additional observations from a re-analysis of the deposited data

How the results depend on the processing

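No alternative gave any of the 36 synthetases an adjusted p under 0.05: over 648 values (18 alternatives each) the smallest was 0.233, for Lars2 without the expression filter. Of the 36, 18 kept their direction in every alternative, and the 18 that did not had log2 fold changes within 0.18 of 0. Mitochondrial genes, with fewer reads, had wider intervals (7 of 16 within a 1.5-fold change, against 13 of 18 cytosolic genes). In the simulated counts edgeR missed most genes changed by 1 on the log2 scale. Those genes were drawn from all tested genes, whose median standard error was 0.238, against 0.177 for the 36 synthetases. The causes of the changes below were not tested.

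After adjustment, 3 genes of the whole table passed (1 higher, 2 lower). These became 0 higher and 0 lower with DESeq2's size factors, library size alone, at least 10 counts in every library, limma-voom, the GC trend removed, or limma on FPKM with a pseudocount of 1 or of 0.1; 65 and 184 without a filter; and 21 and 71 with DESeq2. With single libraries left out they ranged from 0 to 8 and from 0 to 48. At an unadjusted p under 0.05 the number of genes was 992, and 1703 without a filter. Synthetases higher at an unadjusted p under 0.05 numbered 0, became 1 (Lars2) without a filter, and ranged from 0 to 1 with libraries left out. Those lower numbered 0, became 1 (Cars2) with the GC trend removed, and ranged from 0 to 1 (Vars, without WT replicate 1) with libraries left out. The cytosolic median ranged from -0.059 to 0.068 and the mitochondrial minus the cytosolic median from -0.154 to -0.025 with libraries left out. Eif5a was at -0.082 with the GC trend removed and ranged from -0.13 to 0.23 with libraries left out.

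With the replicate block, 7 genes were higher and 17 lower at an adjusted p under 0.05, and no synthetase call changed. Same-numbered libraries had correlations of deviation of 0.084, -0.160 and 0.105, so the numbers were not taken to pair them, and WT replicate 1 correlated most with eIF5A-KO replicate 2.

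Synthetases with a change of sign, each uncalled, were Qars (-0.0033 with upper-quartile factors, -0.019 with library size alone, -0.031 with the GC trend removed), Sars2 (-0.0023 with library size alone, -0.11 with the GC trend removed), Yars2 (0.0021 with library sizes without mitochondrial and top genes, 0.0069 without a filter, 0.0019 with DESeq2, 0.00031 and 0.00022 with limma on log2(FPKM + 1) and log2(FPKM + 0.1), 0.072 with the GC trend removed), Pars2 (0.0019 without a filter) and Vars2 (0.0078 with limma on log2(FPKM + 0.1)). With the GC trend removed Tars was also at 0.0034, Farsa at -0.017, Eprs at 0.024, Iars2 at 0.0022 and Tars2 at 0.023. With single libraries left out, log2 fold changes ranged for Nars from -0.16 to 0.051, Rars from -0.25 to 0.052, Hars from -0.28 to 0.10, Farsb from -0.21 to 0.084, Iars from -0.065 to 0.24, Tars from -0.16 to 0.044, Vars from -0.43 to 0.070, Yars from -0.0092 to 0.14, Qars from -0.057 to 0.14 and Eprs from -0.13 to 0.019. Among mitochondrial genes they ranged for Yars2 from -0.060 to 0.041, Aars2 from -0.069 to 0.34, Sars2 from -0.14 to 0.24, Pars2 from -0.23 to 0.17, Vars2 from -0.30 to 0.12, Tars2 from -0.10 to 0.11 and Iars2 from -0.11 to 0.013. Among genes that kept their direction with libraries left out, the estimate moved by over 1.5 times for Kars (0.0091 to 0.14), Gars (0.092 to 0.21), Lars (-0.25 to -0.070), Aars (0.086 to 0.31), Sars (0.16 to 0.35), Cars (0.080 to 0.21), Farsa (0.032 to 0.20), Mars (-0.092 to -0.045), Fars2 (0.054 to 0.33), Lars2 (0.12 to 0.85), Nars2 (-0.36 to -0.16), Rars2 (-0.26 to -0.085), Wars2 (-0.25 to -0.12), Hars2 (-0.21 to -0.11) and Ears2 (-0.24 to -0.088).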
